A study of Macaca fascicularis with 56 samples.

Results

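The SLC25 family holds the carrier proteins that connect the cytosol with the mitochondrial matrix, and its transcripts were followed here in the blood of cynomolgus macaques (Macaca fascicularis). A gene was a member if the array carried a probe set (the group of short probes that measures a transcript) whose only gene symbol was SLC25A followed by a number. For each gene the probe set with the highest mean log2 intensity over all 56 arrays was taken, provided that it lay above the array's median intensity on 4 or more arrays. This gave 42 carriers out of 44 considered here, which had 95 probe sets, among 16020 genes tested in all. SLC25A21, an oxodicarboxylate carrier, and SLC25A31, a testis-type ADP/ATP carrier, lay above the median on 0 arrays and were left out, and the member nearest to that limit was SLC25A18, above it on 6 arrays. The members' probe sets lay above the median on all 56 arrays for 26 carriers and on fewer than 28 arrays for 7. The symbols of 41 of the 42 were found in RefSeq's gene table of the macaque assembly T2T-MFA8v1.1.

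Blood was drawn into PAXgene tubes at 0, 2, 4 and 8 h from 14 animals, and every animal gave an array at every hour. The arms were vehicle (4 animals), a peptide control called LR12-scrambled (4 animals) and LR12 (6 animals). LR12 is a peptide derived from TREML1 that is described as a decoy for the ligands of TREM-1, an activating receptor of neutrophils and monocytes, and the series is titled as an endotoxin challenge followed by a peptide. Age, doses, whether the vehicle animals received endotoxin and what happened at hour 0 are not given in the sources used here. Arms are therefore named by their labels. The array was designed for human transcripts, so a probe can bind macaque RNA less well for one gene than for another. Differences were therefore taken between arrays for a gene, not between genes. The choice of probe sets by brightness and the sums of marker intensities below do set or add probe sets together. Brighter probe sets weigh more in such a sum.

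Almost all SLC25 proteins sit in the mitochondrial inner membrane, are encoded in the nucleus, and exchange a metabolite, nucleotide, cofactor or ion of the cytosol for one of the matrix. They set how ADP, phosphate, citrate, glutamate, iron, nucleotides and coenzymes reach the enzymes that use them. Mitoferrins carry iron for heme and iron-sulfur clusters, which red cell precursors need in bulk, while leukocytes draw on the citrate, malate-aspartate and nucleotide carriers when they are activated or divide.

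Blood is a mixture, and in such bulk RNA fewer cells of a type and less RNA per cell cannot be told apart. Markers of blood cell types moved strongly with the hours. In the LR12 arm the summed intensity of 8 measured T cell markers ran from 7190 to 13400 over the animals at 0 h and from 1080 to 3150 at 4 h, and that of 10 neutrophil markers from 4310 to 9370 and from 15100 to 18800. The T cell sum at 4 h was 2580 to 5350 in the peptide control arm and 3540 to 7360 in the vehicle arm, from 6560 to 10300 and from 6860 to 14000 at 0 h. In the LR12 arm 8 of 8 T cell markers fell at 4 h and 7 of 10 neutrophil markers rose, while 1 of the 10 fell. Of the B cell markers 4 of 5 fell, of the monocyte markers 5 rose and 2 fell of 7, and of the platelet markers 3 of 6 fell. Of the NK cell markers 4 of 6 fell, although their summed intensity ran from 1830 to 4100 (median 2290) at 0 h and from 1980 to 4560 (median 3360) at 4 h. Of 11 erythroid markers 0 were called at that hour. Of these lists, 7 T cell, 8 neutrophil, 4 B cell, 4 NK cell, 7 monocyte, 4 platelet and 5 of 11 erythroid markers lay above the median on every array, so defining markers of each of these cell types were measured in the blood. The part of these shifts in the carrier results below was not tested.

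Some arrays and animals stood apart. Control probe sets for spiked bacterial transcripts split the arrays into 24 with high and 32 with low values, spread unevenly over the groups (LR12 1, 1, 2 and 3 of 6 at 0, 2, 4 and 8 h; peptide control 3, 1, 4 and 3 of 4; vehicle 2, 0, 2 and 2 of 4). Animal 1 of the peptide control arm had little in common with the LR12 arm, with correlations over genes between its change and the mean LR12 change of -0.001, 0.135 and 0.066 at 2, 4 and 8 h. Animal 3 of the vehicle arm had 0.369, 0.489 and 0.451, and animal 4 of that arm -0.014, 0.026 and 0.077. These correlations describe libraries that share genes and hours and carry no test. Comparisons whose counts change without one of these animals are also given without it. The animals stand out here by their likeness to the LR12 change, so counts without one of them are not independent of the outcome.

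Most carrier calls lay in the LR12 arm, which also held the most animals. In limma's moderated test with Benjamini-Hochberg adjustment over all 16020 genes, called at an adjusted p under 0.05, 4 carriers rose and 13 fell at 2 h, when 10.1% of all genes rose and 21.9% fell (32.0% in either direction). By 4 h, 7 had risen and 18 had fallen, against 10.8% and 26.0% of all genes (36.8% in either direction). For 8 h the numbers were 6 and 14, against 8.65% and 20.4% (29.1%). As shares of the 42 carriers these are 9.52% and 31.0% at 2 h, 16.7% and 42.9% at 4 h. The 8 h shares are 14.3% and 33.3%. The share that rose at 2 h was close to the background, and after centring each array on its median those at 4 and 8 h were too.

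The median log2 change of the carriers in the LR12 arm was -0.314 at 2 h, -0.658 at 4 h and -0.409 at 8 h, and that of all genes -0.179, -0.286 and -0.268. Centring each array on its median moved the all-gene median by 0.055, 0.264 and 0.277 to -0.124, -0.022 and 0.009. The carrier medians then became -0.259, -0.394 and -0.132, and 4, 7 and 6 carriers rose and 11, 13 and 8 fell, when 10.4%, 15.4% and 13.7% of all genes rose and 18.7%, 16.8% and 9.83% fell. The rises were still 9.52%, 16.7% and 14.3% of the carriers, now close to the all-gene share at each hour. Over all genes that centring raised the share of calls that were rises from 31.5% to 35.6% at 2 h, from 29.3% to 47.9% at 4 h and from 29.8% to 58.3% at 8 h. Quantile normalization gave 39.7% and 41.1% at 4 and 8 h, with the all-gene median moved by 0.229 and 0.211. Of the 62 calls in the LR12 arm, 49 stayed called after centring, and the sign turned for a single gene (SLC25A3 at 4 h).

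In all, 29 carriers were called at 1 or more hours of the LR12 arm and 13 at none. SLC25A33, SLC25A37 and SLC25A44 rose at all 3 hours. SLC25A4, SLC25A5, SLC25A12, SLC25A15, SLC25A23, SLC25A26, SLC25A36, SLC25A42 and SLC25A43 fell at all 3. Counting any hour, 7 carriers rose, 22 fell, and 0 did both. Such counts over several hours were not made for all genes, so these numbers have no background beside them. The called changes went the same way in all 6 animals for 14 of 17 carriers at 2 h, 23 of 25 at 4 h and 17 of 20 at 8 h, and of all called genes 88.4%, 87.4% and 83.8% did so. The 0 h and later arrays did not overlap for 6, 20 and 13 of the called carriers, which are 35.3%, 80.0% and 65.0% of them, against 43.5%, 51.7% and 46.8% of all called genes. Called or not, 16.7%, 47.6% and 31.0% of the carriers did not overlap, against 14.5%, 19.4% and 14.2% of all genes tested. The 2 h shares were close to each other.

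**Figure D1:**
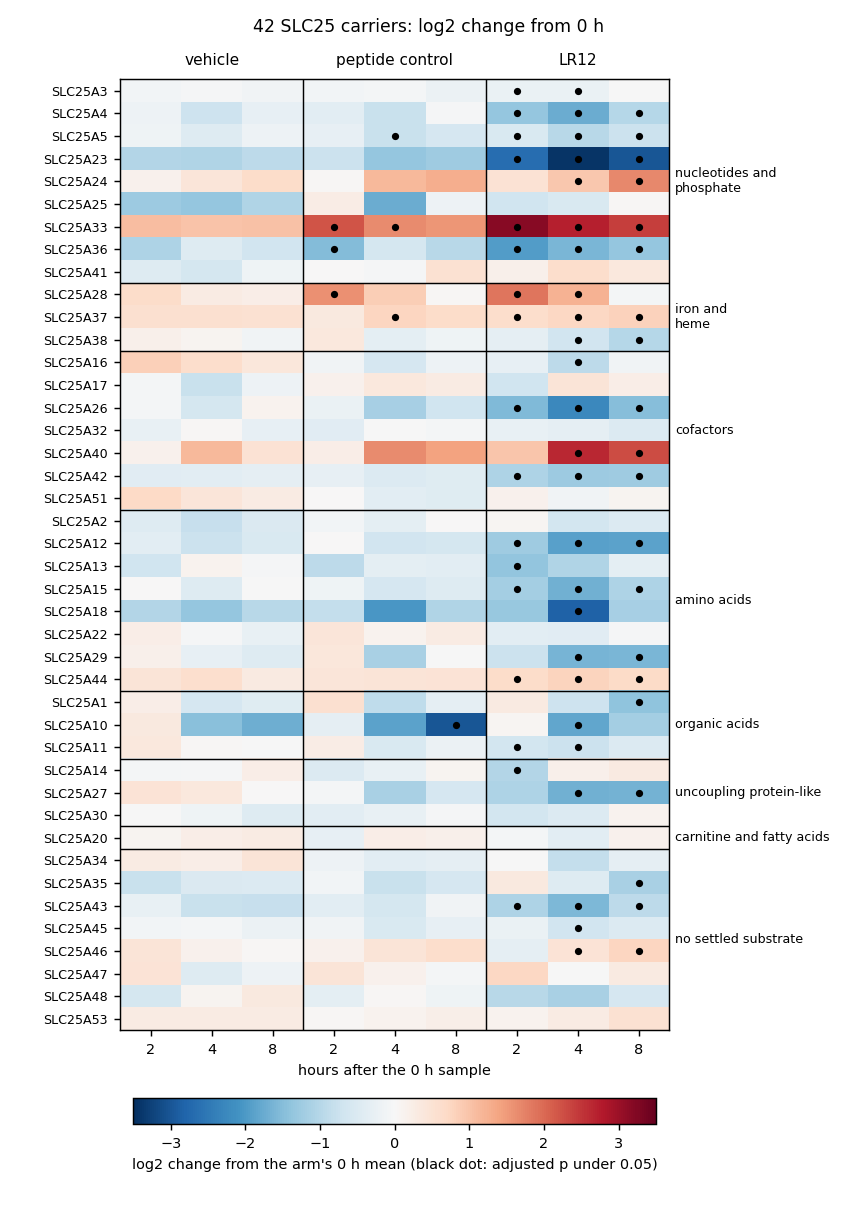
Log2 change from the arm's 0 h mean (colour) for 42 SLC25 carriers (rows, by role) at 2, 4 and 8 h in the vehicle, peptide control and LR12 arms (columns), with a black dot at an adjusted p under 0.05. The LR12 columns hold 62 dots, the peptide control columns 7 and the vehicle columns 0, and the darkest cells are SLC25A33 (up) and SLC25A23 (down).

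The peptide control arm had 2 carriers up and 1 down at 2 h, when 2.2% of all genes rose and 1.1% fell (3.3% in either direction). The 4 h counts were again 2 and 1, against 1.9% and 2.95% (4.84%). A single carrier fell at 8 h and 0 rose, against 0.243% and 0.487% (0.73%). These 7 calls were SLC25A28, SLC25A33 and SLC25A36 at 2 h, SLC25A33, SLC25A37 and SLC25A5 at 4 h, and SLC25A10 at 8 h. They rest on few animals: without animal 2 of the arm 0 of the 7 stayed called, without animal 3 there were 3, without animal 4 there were 2, and without animal 1 there were 6. Without animal 1 the carriers called at 4 h numbered 8 and at 8 h 5 (12.1% and 3.48% of all genes), and without vehicle animal 3, which only enters through the shared spread, 6 and 3 (9.86% and 2.4%). Blocking on the animal gave counts of 9 at 4 h and 5 at 8 h, against 15.3% and 4.29% of all genes. Over all genes the share of peptide control calls that were rises was 39.2% at 4 h and 66.7% at 8 h, and after centring 86.9% and 89.6%. Quantile normalization put the 4 h share at 52.3%.

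Under vehicle, limma called 0 carriers at each hour, when it called 0.0%, 0.0125% and 0.0375% of all genes at 2, 4 and 8 h. At an unadjusted p under 0.05 there were 8, 7 and 4 carriers (19.0%, 16.7% and 9.52%), against 6.29%, 9.38% and 6.23% of all genes. The smallest adjusted p was 0.616 for SLC25A36 at 2 h, 0.272 for SLC25A44 at 4 h and 0.582 for SLC25A10 at 8 h. The vehicle counts stayed at 0 at each hour without animal 3.

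Of the 9 carriers of nucleotides and phosphate, the largest group, 1 rose and 5 fell at 2 h of the LR12 arm, 2 and 5 did at 4 h, and 2 and 4 at 8 h. The pyrimidine nucleotide carriers SLC25A33 and SLC25A36, which bring pyrimidine nucleotides into mitochondria for the synthesis of mitochondrial DNA and RNA, moved in opposite directions. SLC25A33 (probe set 223296_at) had LR12 log2 intensities of 8.07 to 9.93 (median 8.68) at 0 h, 11.66 to 12.07 (12.02) at 2 h, 11.23 to 11.74 (11.46) at 4 h and 10.59 to 11.59 (11.15) at 8 h. All 6 animals lay above every 0 h array at each later hour, although the highest 0 h value, that of animal 6, was far above the other five. The log2 change was 3.18 ± 0.38 (SE) at 2 h (adjusted p = 1.3e-08, limma), 2.73 ± 0.38 at 4 h and 2.42 ± 0.38 at 8 h, which is 9.08, 6.62 and 5.34 times the 0 h level. It was the largest rise among the carriers at 2, 4 and 8 h of this arm.

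SLC25A33 also rose in the peptide control arm. Its 4 animals had log2 intensities of 8.53, 8.09, 9.16 and 9.87 at 0 h, 9.55, 11.70, 11.31 and 11.90 at 2 h. The 4 h values were 9.58, 11.03, 10.61 and 11.05. Animal 1 stayed well below the other three at both later hours, and its values overlapped the 0 h range. The log2 change was 2.20 ± 0.47 at 2 h and 1.65 ± 0.47 at 4 h, with adjusted p-values of 0.0037 and 0.033 in limma, and without animal 2 they were 1.74 and 1.22 with adjusted p-values of 0.171 and 0.311. The 4 h call was also lost without animal 3 or 4 (0.181 and 0.095). The vehicle animals had values of 8.25, 8.19, 9.55 and 9.80 at 0 h and 9.23, 9.20, 11.64 and 10.08 at 2 h. All 4 animals were higher at 2 h, animal 3 by the most, and the log2 change of 1.09 ± 0.47 had an adjusted p of 0.72.

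SLC25A36 (201917_s_at) went the other way. In the LR12 arm its log2 intensity ran from 6.81 to 8.16 (median 7.57) at 0 h, 4.95 to 6.93 (5.35) at 2 h, 5.44 to 6.58 (5.89) at 4 h and 4.99 to 7.42 (6.30) at 8 h. All 6 animals were lower than at 0 h each time, with no overlap at 4 h. On the log2 scale it changed by -1.94 ± 0.34 (adjusted p = 1.3e-05, limma), -1.60 ± 0.34 and -1.34 ± 0.34. Peptide control values were 8.31, 8.07, 7.50 and 8.55 at 0 h and 5.84, 6.80, 7.15 and 6.53 at 2 h, with no overlap and a log2 change of -1.53 ± 0.42 (adjusted p = 0.027). That call was lost without animal 1, 2 or 4 (adjusted p = 0.149, 0.171 and 0.239) and with the array set as a covariate (0.0523). All 4 vehicle animals were lower at 2 h too, with a mean log2 change of -1.08 ± 0.42 and an adjusted p of 0.62.

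The fall of SLC25A36 belongs to that probe set. The 3 other kept probe sets of the gene changed by -0.24, -0.20 and -0.67 at 2 h, -0.11, -0.15 and 0.07 at 4 h. The 8 h changes were 0.47, -0.04 and 0.16. The array carried a single probe set for SLC25A33, so no such comparison exists for it.

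**Figure D2:**
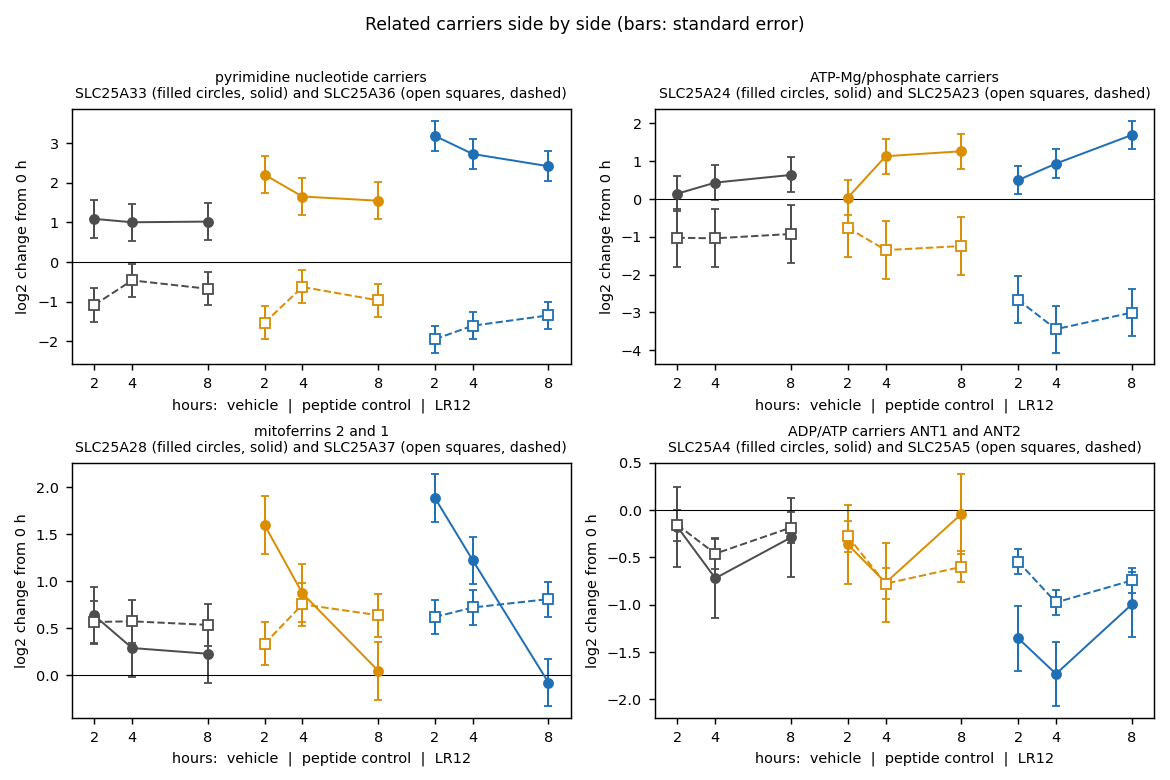
Log2 change from 0 h with its standard error (vertical) at 2, 4 and 8 h (horizontal) in the vehicle (grey), peptide control (orange) and LR12 (blue) arms for 4 pairs of related carriers. SLC25A33 and SLC25A36 lie on opposite sides of 0 in every arm, with LR12 means of 3.18 and -1.94 at 2 h, and SLC25A28 falls back to -0.08 at 8 h while SLC25A37 stays at 0.81.

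The calcium-regulated ATP-Mg/phosphate carriers, which adjust the size of the matrix adenine nucleotide pool, also split. SLC25A23 (226010_at) had LR12 log2 intensities of 5.30 to 6.47 (median 6.10) at 0 h, 2.22 to 5.34 (2.87) at 2 h, 0.74 to 4.19 (2.35) at 4 h and 1.90 to 4.91 (2.81) at 8 h. The arrays of 0 h and 4 h, and of 0 h and 8 h, did not overlap. It changed by -2.67 ± 0.62, -3.44 ± 0.62 and -3.0 ± 0.62, with adjusted p-values of 0.00067, 1.8e-05 and 0.00026 in limma. The probe set lay above the array's median on 6 of 6 LR12 arrays at 0 h but on 2, 1 and 1 of them at 2, 4 and 8 h, so the falls have no clear size at that brightness. The other probe set of SLC25A23, above the median on 25 arrays, changed by 1.11, 1.23 and 0.51 and was not called (adjusted p = 0.184, 0.116 and 0.59), so the direction depends on the probe set. Peptide control animals had 6.21, 4.94, 5.93 and 4.80 at 0 h and 4.71, 3.64, 4.34 and 3.80 at 4 h on the called probe set, all lower and without overlap. Vehicle animals had 5.36, 5.80, 6.08 and 5.09 and then 5.07, 5.19, 3.13 and 4.78, also all lower. Neither change, -1.35 ± 0.76 and -1.04 ± 0.76, was called (adjusted p = 0.28 and 0.69).

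Its relative SLC25A24 (204342_at) rose late. The LR12 log2 intensities were 7.87 to 8.18 (median 7.95) at 0 h, 8.61 to 9.50 (8.74) at 4 h and 8.81 to 10.60 (9.54) at 8 h, with no overlap at either hour. Its change was 0.94 ± 0.38 at 4 h (adjusted p = 0.046) and 1.69 ± 0.38 at 8 h (adjusted p = 0.00064). The 4 h call was lost without each of the 6 LR12 animals in turn (adjusted p from 0.0569 to 0.125), and also without vehicle animal 4 or peptide control animal 2 or 4 (0.0517 to 0.0539). The peptide control animals had SLC25A24 values of 8.59, 8.73, 7.68 and 8.72 at 0 h and 7.96, 10.35, 10.39 and 10.08 at 8 h, where animal 1 alone was lower, and the mean change of 1.26 ± 0.46 was not called (adjusted p = 0.18). SLC25A25 and SLC25A41, of the same group, were not called at any hour, with changes between -0.69 and 0.62 in the LR12 arm.

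The ADP/ATP carriers SLC25A4 (ANT1) and SLC25A5 (ANT2), which export ATP made in the matrix, fell together in the LR12 arm. SLC25A5 (200657_at) had log2 intensities of 12.26 to 12.75 (median 12.54) at 0 h, 11.84 to 12.30 (11.96) at 2 h, 11.39 to 11.98 (11.48) at 4 h and 11.52 to 11.98 (11.80) at 8 h. The arrays of 4 and 8 h lay wholly below those of 0 h. Its log2 change was -0.54 ± 0.13, -0.98 ± 0.13 and -0.74 ± 0.13, and the 4 h value had the smallest adjusted p of the carriers at that hour (1.8e-07, limma).

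Peptide control animals had SLC25A5 values of 12.40, 12.68, 12.65 and 12.46 at 0 h and 12.17, 11.72, 11.76 and 11.43 at 4 h, with no overlap. It changed there by -0.78 ± 0.16 (adjusted p = 0.0096), a call lost without animal 2, 3 or 4 (0.181, 0.118 and 0.076) and after centring the arrays (-0.51, adjusted p = 0.134). Vehicle animals had 12.49, 12.67, 12.39 and 12.22 at 0 h and 12.28, 12.01, 11.55 and 12.10 at 4 h, all 4 animals lower, with a change of -0.46 ± 0.16 (adjusted p = 0.34).

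SLC25A4 (202825_at) had LR12 log2 intensities of 7.27 to 8.61 (median 7.76) at 0 h, 5.47 to 7.23 (6.56) at 2 h and 5.43 to 7.64 (5.83) at 4 h. The 2 h arrays lay below all 0 h arrays and all 6 animals fell. The change was -1.35 ± 0.34, -1.73 ± 0.34 and -1.0 ± 0.34 at 2, 4 and 8 h (adjusted p = 0.0016, 6.7e-05 and 0.023), and the 8 h call was lost without animal 3 or 5 of the arm (0.0817 and 0.0592) and after centring (-0.72, 0.133). At 0 and 4 h the peptide control values were 7.59, 8.02, 7.63 and 6.93 and then 7.68, 6.22, 6.23 and 6.98, and the vehicle values 8.59, 8.77, 7.20 and 7.91 and then 8.25, 7.39, 6.77 and 7.17. At 4 h, 2 of 4 peptide control animals and 4 of 4 vehicle animals were lower, with changes of -0.77 ± 0.42 and -0.72 ± 0.42 and no call. The phosphate carrier SLC25A3, which feeds ATP synthase, fell by 0.23 and 0.24 on the log2 scale at 2 and 4 h in the LR12 arm (adjusted p = 0.034 and 0.025), a small change that was lost after centring (-0.18 and 0.02, adjusted p = 0.301 and 0.914) and without LR12 animal 2, 3 or 5 (adjusted p from 0.056 to 0.151).

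ATP synthase, the user of the phosphate and ADP that these carriers import, was given as a list of 16 measured subunits, of which 2 rose and 5 fell at 2 h of the LR12 arm, and 2 and 6 did at both later hours. The largest changes at 4 h were those of ATP5MC2 (-1.49 ± 0.16) and ATP5ME (-1.11 ± 0.26). The list's median change was -0.143, -0.282 and -0.27, against -0.179, -0.286 and -0.268 for all genes. In the peptide control arm ATP5MC2 was called lower at 4 h too (-0.73 ± 0.2, adjusted p = 0.0282, limma).

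Among the 3 carriers of iron and heme synthesis the mitoferrins rose and SLC25A38 fell. SLC25A28 (mitoferrin-2, 223192_at), the iron importer of most tissues, had LR12 log2 intensities of 11.20 to 11.58 (median 11.32) at 0 h, 12.74 to 13.68 (13.14) at 2 h, 12.43 to 12.71 (12.55) at 4 h and 10.89 to 11.82 (11.28) at 8 h. The arrays of 2 and 4 h lay wholly above those of 0 h, and those of 8 h overlapped them. The log2 change from 0 h was 1.88 ± 0.25 (adjusted p = 9.5e-08, limma), 1.22 ± 0.25 (0.00011) and -0.08 ± 0.25 (0.85). The step from 4 to 8 h was -1.30 ± 0.25 (adjusted p = 0.0006), the single carrier call of that step, against 2.45% of all genes that fell and 3.22% that rose (5.67% in either direction). Blocking on the animal gave 3 called carriers in that step, against 10.3% of all genes. On the low-control or high-control arrays alone the step was -1.07 and -1.48 and was not called (0.107 and 0.0511).

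Under the peptide control SLC25A28 had 11.13, 10.98, 11.32 and 11.18 at 0 h and 11.55, 13.23, 12.96 and 13.26 at 2 h. Animals 2, 3 and 4 were far above their 0 h values and animal 1 only a little, with no overlap. The log2 change of 1.60 ± 0.31 (adjusted p = 0.0014) was lost as a call without animal 2 or 4 (0.0923 and 0.0576). Vehicle values at 0 h were 10.86, 11.14, 11.46 and 11.07 and at 2 h 11.12, 11.41, 13.16 and 11.37, so that animal 3 alone reached the level of the LR12 animals, and the change of 0.64 ± 0.31 had an adjusted p of 0.77. The LR12 means of all 3 probe sets of SLC25A28 were higher, by 1.88, 2.44 and 3.11 at 2 h and by 1.22, 1.53 and 1.47 at 4 h, and lay at -0.08, -0.21 and -0.25 at 8 h.

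SLC25A37 (mitoferrin-1, 226179_at), the iron importer that red cell precursors depend on, showed a smaller rise that lasted. Its LR12 log2 intensities were 11.72 to 13.00 (median 12.45) at 0 h, 12.52 to 13.23 (13.04) at 2 h, 12.88 to 13.14 (13.03) at 4 h and 12.97 to 13.27 (13.10) at 8 h. All 6 animals were higher at each hour, and the ranges overlapped. The rises were 0.62 ± 0.18, 0.72 ± 0.18 and 0.81 ± 0.18 (adjusted p = 0.0074, 0.0016 and 0.00081), and the 2 h call was lost after quantile normalization (0.34, adjusted p = 0.0838). The second brightest probe set changed by as much but was called at no hour (adjusted p = 0.159, 0.0607 and 0.0574). Its 10 probe sets changed by 0.16 to 1.11 at 2 h, 0.47 to 1.42 at 4 h and -0.03 to 1.59 at 8 h, with a single value below 0.

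Peptide control animals had SLC25A37 values of 12.53, 11.52, 12.32 and 12.04 at 0 h and 12.99, 12.74, 12.88 and 12.80 at 4 h, without overlap. The log2 change of 0.75 ± 0.23 (adjusted p = 0.042) was lost as a call without animal 2, 3 or 4 (0.303, 0.184 and 0.151). Vehicle values were 11.45, 11.55, 12.71 and 12.74 at 0 h and 12.41, 12.69, 13.09 and 12.55 at 4 h, higher in 3 of 4 animals by 0.57 ± 0.23 on average (adjusted p = 0.41).

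SLC25A38 (217961_at), a glycine carrier needed for the first step of heme synthesis, fell late in the LR12 arm. It had log2 intensities of 6.62 to 7.11 (median 6.82) at 0 h, 5.67 to 6.58 (6.20) at 4 h and 5.70 to 6.11 (5.84) at 8 h, and neither later range touched that of 0 h. The falls on the log2 scale were -0.68 ± 0.21 at 4 h (adjusted p = 0.0092) and -0.99 ± 0.21 at 8 h (0.00042). The 4 h call was lost after centring (-0.42, 0.153) and without animal 6 (-0.56, 0.0623).

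The other genes of the mitoferrin pathway were a list of 11 measured enzymes of heme and iron-sulfur synthesis. Of these 1 rose and 5 fell at 2 h of the LR12 arm, 6 fell at 4 h and 2 at 8 h, with 0 that rose at the later hours. ALAD, which joins aminolevulinate into porphobilinogen, fell by 2.34 ± 0.43 at 2 h and 2.08 ± 0.43 at 4 h on the log2 scale, and PPOX, a late heme synthesis enzyme, fell by 1.68 ± 0.26 at 4 h. GLRX5, of iron-sulfur cluster assembly, fell by 0.77 ± 0.23 at 8 h. ALAD was also called lower in the peptide control arm at 2 h (-1.78 ± 0.53, adjusted p = 0.0461, limma). Of 11 measured erythroid markers 1 rose and 0 fell at 2 h of the LR12 arm, 0 did either at 4 h, and 6 fell at 8 h, with a summed intensity of 14600 to 33400 at 0 h and 14600 to 24200 at 8 h. Their part in the result was not tested.

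**Figure D3:**
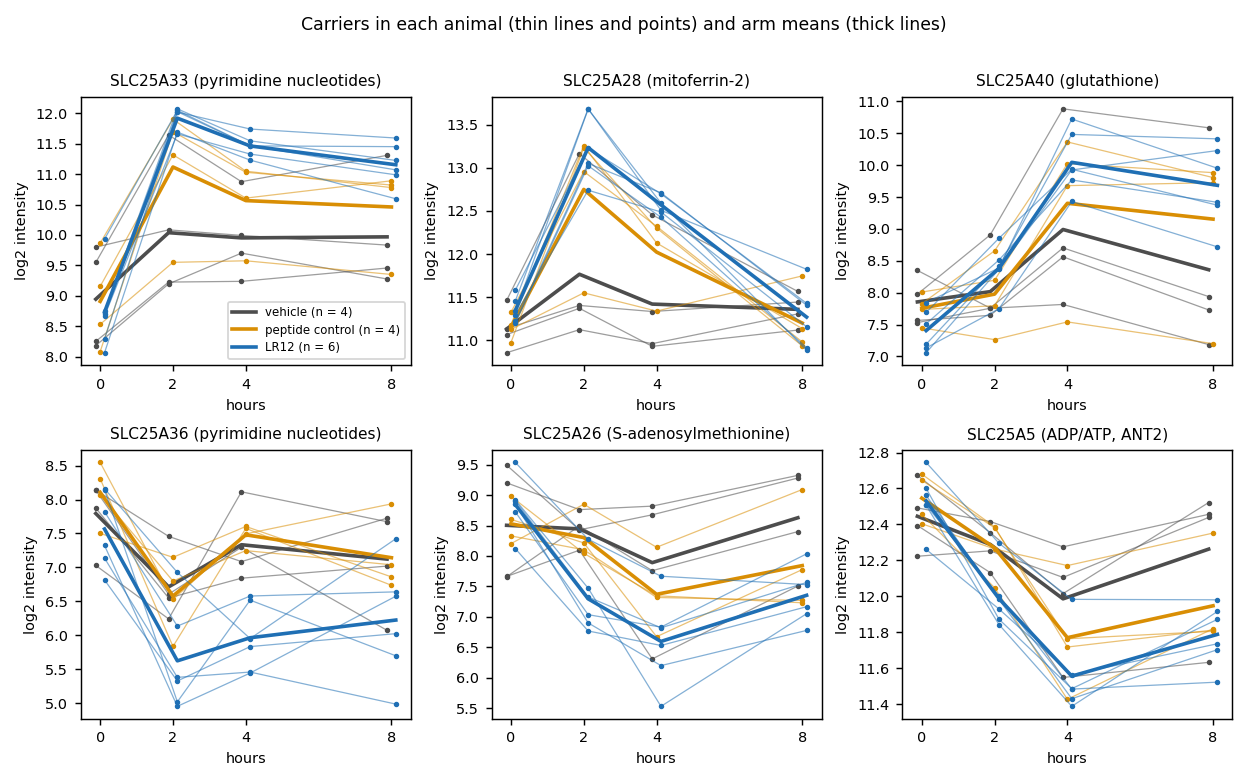
Log2 intensity (vertical) against hours (horizontal) for 6 carriers, with each animal as a thin line with points and each arm's mean as a thick line (vehicle grey, n = 4; peptide control orange, n = 4; LR12 blue, n = 6). SLC25A28 peaks at 2 h and returns by 8 h, SLC25A40 rises between 2 and 4 h, and 1 vehicle animal follows the LR12 lines for SLC25A33, SLC25A28 and SLC25A40.

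Of the 7 cofactor carriers, 2 fell at 2 h of the LR12 arm, 1 rose and 3 fell at 4 h, and 1 and 2 did at 8 h. SLC25A40 (205716_at), a glutathione carrier, had log2 intensities of 7.06 to 7.85 (median 7.35) at 0 h, 7.75 to 8.85 (8.40) at 2 h, 9.43 to 10.73 (9.93) at 4 h and 8.72 to 10.41 (9.69) at 8 h. All 6 animals were higher at each hour, and the arrays of 4 and 8 h lay wholly above those of 0 h. It changed on the log2 scale by 0.98 ± 0.45 at 2 h (adjusted p = 0.092), 2.64 ± 0.45 at 4 h (6.7e-06) and 2.28 ± 0.45 at 8 h (0.00014), or 6.24 and 4.86 times the 0 h level at the later hours. With the animal as a block the 2 h value was called too (adjusted p = 0.0243). Its other probe set changed by 1.32, 2.08 and 2.10.

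Under the peptide control SLC25A40 had 7.45, 8.01, 7.74 and 7.83 at 0 h, 7.54, 10.02, 9.68 and 10.37 at 4 h. The 8 h values were 7.20, 9.88, 9.73 and 9.81. Animals 2, 3 and 4 reached the LR12 range and animal 1 did not leave its 0 h level. The mean log2 changes of 1.65 ± 0.55 and 1.40 ± 0.55 were not called (adjusted p = 0.064 and 0.22). Vehicle values were 7.56, 7.53, 7.98 and 8.35 at 0 h and 8.56, 7.81, 10.88 and 8.70 at 4 h, with animal 3 again the highest and a mean change of 1.14 ± 0.55 (adjusted p = 0.52).

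SLC25A26 (225862_at) brings S-adenosylmethionine, the methyl donor, into mitochondria. It had LR12 log2 intensities of 8.12 to 9.54 (median 8.88) at 0 h, 6.77 to 8.27 (7.18) at 2 h, 5.53 to 7.67 (6.67) at 4 h and 6.78 to 8.04 (7.35) at 8 h, and the arrays of 4 and 8 h did not overlap those of 0 h. The changes were -1.55 ± 0.37 (adjusted p = 0.00087), -2.25 ± 0.37 (4.1e-06) and -1.49 ± 0.37 (0.0019). Peptide control animals had 8.20, 8.33, 8.98 and 8.60 at 0 h and 8.14, 7.32, 7.35 and 6.67 at 4 h, all 4 animals lower, with a change of -1.16 ± 0.45 that was not called (adjusted p = 0.11). Vehicle animals had 9.20, 9.49, 7.66 and 7.66 at 0 h and 8.82, 8.68, 6.31 and 7.76 at 4 h, lower in 3 of 4 by -0.61 ± 0.45 in the mean (adjusted p = 0.70).

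SLC25A42, a carrier of coenzyme A, fell at all 3 hours of the LR12 arm by 1.08 ± 0.25, 1.28 ± 0.25 and 1.25 ± 0.25 on the log2 scale. Its 4 h intensities of 5.84 to 6.53 lay below the 0 h range of 6.94 to 7.93. A second probe set of the gene changed by -0.62, -1.05 and -0.67, and the third, above the median on 21 arrays, by 0.49, -0.63 and -1.26, so the probe sets differ in sign at 2 h. SLC25A16, named for a role in coenzyme A supply, fell by 0.92 ± 0.33 at 4 h (adjusted p = 0.022), a call lost after centring (0.148) and without animal 6 (0.0768). The other probe sets of SLC25A16 changed by -1.95, -0.04 and -1.17 at that hour. The folate and FAD carrier SLC25A32, the NAD carrier SLC25A51 and the peroxisomal cofactor carrier SLC25A17 were not called against 0 h, with changes between -0.70 and 0.44.

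Of 18 measured one-carbon and cofactor enzymes, 1 rose and 6 fell at 2 h, 1 and 7 did at 4 h, and 0 and 6 at 8 h. MTHFD1, a cytosolic folate enzyme, fell by 1.98 ± 0.39 at 2 h, SHMT2, which makes mitochondrial one-carbon units, by 1.78 ± 0.29 at 2 h, and TYMS, thymidylate synthase, by 1.96 ± 0.33 at 8 h on the log2 scale. The list's median change was -0.437, -0.298 and -0.227, so it lay below the all-gene median of -0.179 at 2 h and near it later.

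Of the 8 amino acid carriers, 1 rose at every later hour of the LR12 arm, while 3, 4 and 3 fell at the successive hours. The aspartate-glutamate carrier SLC25A12 (aralar, 203340_s_at), part of the malate-aspartate shuttle, had log2 intensities of 7.13 to 8.63 (median 7.43) at 0 h, 5.66 to 7.47 (6.36) at 2 h, 5.37 to 6.22 (5.61) at 4 h and 5.42 to 6.40 (5.64) at 8 h. The arrays of 4 and 8 h lay wholly below those of 0 h. On the log2 scale SLC25A12 changed by -1.24 ± 0.35, -1.89 ± 0.35 and -1.88 ± 0.35 (adjusted p = 0.0043, 2.2e-05 and 5.8e-05), and its second probe set by -1.10 at 4 h, without a call (0.0673). Peptide control values at 0 and 4 h were 6.56, 7.63, 8.05 and 6.25 and then 7.18, 5.93, 6.43 and 6.24, and vehicle values 8.03, 8.47, 5.83 and 7.08 and then 7.13, 7.09, 5.55 and 6.65. Peptide control animal 1 was higher and every other animal lower, with changes of -0.68 ± 0.42 and -0.74 ± 0.42 and no call.

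Its relative SLC25A13 (citrin) fell at 2 h by 1.38 ± 0.45 on the log2 scale (adjusted p = 0.014), a call lost without animal 2 (0.113), and its later values of -1.04 ± 0.45 and -0.35 ± 0.45 were not called. SLC25A15, the ornithine carrier of the urea cycle, changed by -1.20 ± 0.31, -1.67 ± 0.31 and -1.07 ± 0.31 at 2, 4 and 8 h, called each time and lower in all 6 animals, although the 8 h call was lost after centring (0.0531). SLC25A29, a carrier of basic amino acids, fell at 4 and 8 h by 1.62 ± 0.54 and 1.61 ± 0.54, calls lost without animal 2 (0.0768 and 0.0811), the 8 h call also without animal 1 (0.0602) and after centring (0.0557). Its second probe set changed by -0.63 and -0.22 at those hours, and the third, above the median on 13 arrays, by -1.16 and -1.19.

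SLC25A44, which imports branched-chain amino acids, was the riser of this group. Its LR12 log2 intensities were 9.79 to 10.15 (median 9.92) at 0 h and 10.45 to 11.10 (10.71) at 4 h, with no overlap. Its log2 change was 0.64 ± 0.15, 0.78 ± 0.15 and 0.66 ± 0.15 (adjusted p = 0.00064, 3.7e-05 and 0.00062), and its 2 probe sets moved alike (0.50, 0.62 and 0.52 in the other). Vehicle animals had 9.87, 9.90, 9.77 and 9.70 at 0 h and 10.30, 10.49, 10.60 and 10.17 at 4 h, all 4 animals higher without overlap, and the change of 0.58 ± 0.18 had an adjusted p of 0.27. Under the peptide control it changed by 0.41 ± 0.18, 0.45 ± 0.18 and 0.48 ± 0.18, with no call.

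The glutamate carrier SLC25A18 (223605_at) had LR12 log2 intensities of 2.48 to 4.48 (median 3.56) at 0 h and -0.58 to 2.48 (0.54) at 4 h. Those values lie in the dimmest part of the arrays, and the 4 h mean was under the mean 20th percentile of its group's arrays, at 1.78. The log2 change at 4 h was -2.83 ± 0.84 (adjusted p = 0.0059), with no clear size at that brightness, and on the low-control arrays alone it was -2.25 (0.0799). Peptide control animals had 4.68, 2.48, 3.80 and 0.66 at 0 h and 1.20, 0.26, 2.50 and -0.45 at 4 h, lower in 4 of 4 animals. Vehicle animals had 3.08, 2.91, 4.10 and 3.26 and then 1.17, 3.78, 2.49 and 0.46, lower in 3 of 4, and neither change was called (adjusted p = 0.222 and 0.707). The glutamate carrier SLC25A22 and the ornithine carrier SLC25A2 were not called at any hour.

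Of 12 measured partner enzymes of aspartate, glutamate and ornithine, 2 rose at each hour, while 4 fell at 2 h and 5 at each later hour. ASL, argininosuccinate lyase, rose by 2.06 ± 0.33 at 2 h, GLUD1, glutamate dehydrogenase, fell by 1.86 ± 0.34 at 2 h, and OAT, ornithine aminotransferase, fell by 1.49 ± 0.44 at 8 h. These are LR12 values, and ASL was also called higher in the peptide control arm at 2 h (1.36 ± 0.40, adjusted p = 0.0443, limma).

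All 3 carriers of organic acids were called in the LR12 arm, each downward. SLC25A1 (210010_s_at), which exports citrate for fatty acid synthesis, had log2 intensities of 6.47 to 8.05 (median 7.05) at 0 h and 5.12 to 6.02 (5.81) at 8 h, without overlap. Its log2 change was 0.31 ± 0.35 at 2 h, -0.74 ± 0.35 at 4 h (adjusted p = 0.094) and -1.40 ± 0.35 at 8 h (0.002). SLC25A11, the oxoglutarate-malate carrier, fell at 2 and 4 h by 0.64 ± 0.23 and 0.74 ± 0.23 on the log2 scale. Both SLC25A11 calls were lost after centring (adjusted p = 0.0847 and 0.155), and the 2 h call also without animal 4, 5 or 6 (0.101, 0.058 and 0.161).

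The dicarboxylate carrier SLC25A10 (218275_at), above the array median on 39 of 56 arrays, had LR12 log2 intensities of 4.54 to 5.63 (median 5.26) at 0 h and 1.80 to 4.53 (3.54) at 4 h. Its changes were 0.07 ± 0.52 at 2 h, -1.81 ± 0.52 at 4 h (adjusted p = 0.0042) and -1.20 ± 0.52 at 8 h (0.073, or 0.0345 with the animal as a block). It was the carrier with the lowest adjusted p at 8 h in the peptide control arm. There its values were 5.36, 5.69, 5.63 and 5.02 at 0 h and 1.70, 2.37, 2.13 and 3.51 at 8 h, all far below, and the change was -3.0 ± 0.63 (adjusted p = 0.016). Of these 8 h arrays 0 of 4 lay above the array's median, so the fall has no clear size at that brightness. Without animal 2 or 3 it was -2.89 or -2.83 with adjusted p-values of 0.418 and 0.227. Vehicle animals had 5.49, 5.48, 5.61 and 3.51 at 0 h and 4.13, 4.84, 2.14 and 2.15 at 8 h, lower in all 4 animals, with a mean change of -1.71 ± 0.63 and an adjusted p of 0.58.

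Of 23 measured enzymes of the tricarboxylic acid cycle and citrate export, 3 rose and 10 fell at 2 h of the LR12 arm, 1 and 9 did at 4 h, and 2 and 6 at 8 h. SUCLG2, a succinyl-CoA synthetase subunit, fell by 2.10 ± 0.45 at 2 h and 2.37 ± 0.45 at 4 h, while ME2, mitochondrial malic enzyme, rose by 2.33 ± 0.57 at 4 h. The list's median change was -0.47, -0.251 and -0.297, against -0.179, -0.286 and -0.268 for all genes.

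Among the uncoupling protein-like carriers SLC25A14 (UCP5, 204587_at) had a short dip. Its LR12 log2 intensities were 8.89 to 9.81 (median 9.32) at 0 h, 7.96 to 8.85 (8.13) at 2 h, 8.97 to 10.13 (9.47) at 4 h and 9.27 to 10 (9.65) at 8 h. The 2 h arrays lay below all others. The log2 change at 2 h was -1.04 ± 0.21 (adjusted p = 8.9e-05, limma), and it was 0.18 ± 0.21 and 0.31 ± 0.21 later. SLC25A27 (UCP4) fell at 4 and 8 h by 1.69 ± 0.52 and 1.64 ± 0.52, and 4 of its 5 probe sets changed by -1.69 to -1.83 at 4 h. The remaining probe set, above the median on 21 arrays, changed by 0.21 at that hour. The 8 h call was lost without LR12 animal 1 or 4 (adjusted p = 0.0506 and 0.0717) and after centring (0.0596). SLC25A30 was not called.

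Of the 8 carriers without a settled substrate 1 fell at 2 h, and at each later hour 1 rose and 2 fell. SLC25A46, an outer membrane protein of mitochondrial dynamics, had LR12 log2 intensities of 6.09 to 6.67 (median 6.38) at 0 h, 5.35 to 6.52 (6.18) at 2 h, 6.74 to 7.12 (6.84) at 4 h and 7.07 to 7.28 (7.15) at 8 h. It rose at 4 and 8 h by 0.49 ± 0.18 and 0.76 ± 0.18 without overlap (adjusted p = 0.031 and 0.0015). The 4 h call was lost without animal 2, 4, 5 or 6 (0.0756, 0.136, 0.0701 and 0.0504), and its other, dimmer probe set changed by -0.27 at that hour. SLC25A43 fell at all 3 hours by 1.07 ± 0.32, 1.58 ± 0.32 and 0.92 ± 0.32, the last lost without animal 2, 3 or 6 (0.0635, 0.0646 and 0.0951) and after centring (0.156). SLC25A45 at 4 h (-0.66 ± 0.26, adjusted p = 0.042) and SLC25A35 at 8 h (-1.14 ± 0.43, 0.037) were called, and both calls were lost after centring (0.268 and 0.125). Each also failed without single LR12 animals, at adjusted p-values of 0.0546 to 0.208 without animal 1, 2, 3 or 4 for SLC25A45 and 0.0636 to 0.329 without animal 3, 4 or 6 for SLC25A35. SLC25A34, SLC25A47, SLC25A48 and SLC25A53 were not called.

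The carnitine-acylcarnitine carrier SLC25A20, the entry of long-chain fatty acids to beta-oxidation, was not called in any arm, with LR12 changes of -0.07 ± 0.31, -0.38 ± 0.31 and 0.15 ± 0.31. Of 19 measured genes of the carnitine shuttle and beta-oxidation, 2 rose and 5 fell at 2 h, 3 and 8 did at 4 h, and 3 and 4 at 8 h. ACSL5, an acyl-CoA synthetase, rose by 1.92 ± 0.27 at 2 h, ACSL1 rose by 1.28 ± 0.31 at 8 h, and ETFA, which takes electrons from beta-oxidation, fell by 2.07 ± 0.37 at 2 h. Those are LR12 values, and ACSL5 was called higher in the peptide control arm too at 2 h (1.47 ± 0.33, adjusted p = 0.00667, limma).

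Carrier proteins are inserted by the small TIM chaperones and the TIM22 complex. Of 14 measured import genes 1 rose at each hour of the LR12 arm, while 4 fell at 2 h, 6 at 4 h and 4 at 8 h, with TIMM29 down by 2.91 ± 0.64 at 2 h and TIMM10 by 1.56 ± 0.26 at 4 h. Of 19 other membrane transporters of mitochondria 3 rose and 7 fell at 2 h, 2 and 8 did at 4 h, and 3 and 2 at 8 h. MICU2, a regulator of the calcium uniporter, rose by 1.81 ± 0.28, 2.31 ± 0.28 and 1.72 ± 0.28, and UCP2, an SLC25-type carrier with a symbol outside the rule, fell by 2.12 ± 0.33 at 2 h and 1.63 ± 0.33 at 4 h. MICU2 also rose in the peptide control arm, by 1.24 ± 0.34 at 2 h and 1.27 ± 0.34 at 4 h (adjusted p = 0.0299 and 0.0271, limma).

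**Figure D4:**
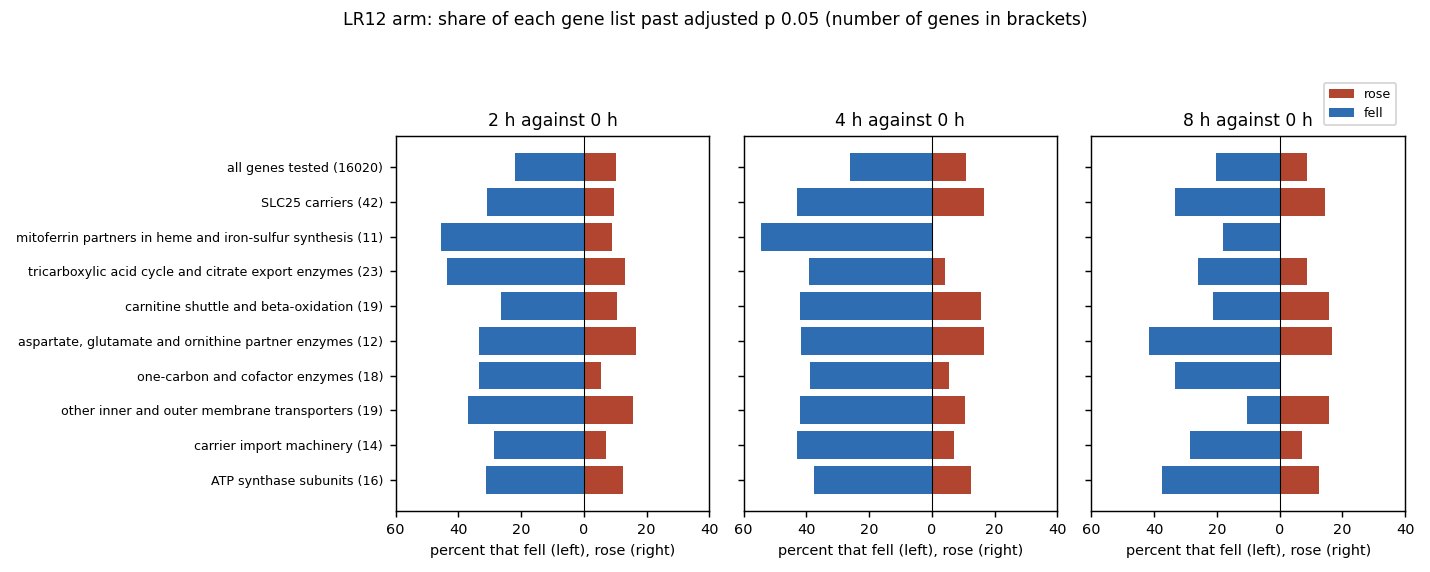
Percent of genes that fell (blue, left) and rose (red, right) at an adjusted p under 0.05 in the LR12 arm at 2, 4 and 8 h, for all 16020 genes, the 42 SLC25 carriers and 8 lists of related genes, with the number of genes in brackets. At 4 h the carriers' bars reach 42.9% and 16.7%, against 26.0% and 10.8% for all genes.

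Between 2 and 4 h of the LR12 arm 4 carriers rose and 3 fell, when 5.3% of all genes rose and 6.22% fell (11.5% in either direction). SLC25A40 rose by 1.67 ± 0.45, SLC25A14 by 1.21 ± 0.21, SLC25A17 by 1.14 ± 0.37 and SLC25A46 by 0.81 ± 0.18 on the log2 scale. SLC25A10 fell by 1.88 ± 0.52, SLC25A1 by 1.05 ± 0.35 and SLC25A5 by 0.43 ± 0.13. Without LR12 animal 2 the step held 2 called carriers and without animal 5 it held 4 (7.5% and 8.31% of all genes), and SLC25A14 and SLC25A46 kept their calls without each animal in turn.

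The arms were compared hour by hour in the same fit. At 0 h limma called 0 carriers in any pair of arms, against 0.0% of all genes for LR12 with peptide control and for peptide control with vehicle, and 0.0187% for LR12 with vehicle. At an unadjusted p under 0.05 there were also 0 carriers at that hour in each pair. The comparisons with vehicle and with peptide control share the LR12 arrays, so their values stand side by side below and were not set against each other.

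Against vehicle, 2 carriers were higher and 7 lower in the LR12 arm at 2 h, when 4.61% of all genes were higher and 11.3% lower (15.9% in either direction). At 4 h, 3 were higher and 9 lower, against 4.36% and 7.56% (11.9%), and at 8 h 1 was lower and 0 higher, against 1.79% and 0.93% (2.72%). The higher carriers were SLC25A33 at 2 h (1.88 ± 0.43) and 4 h (1.51 ± 0.43), SLC25A28 at 2 h (1.47 ± 0.28) and 4 h (1.15 ± 0.28), and SLC25A17 at 4 h (1.49 ± 0.41). For SLC25A33 the 6 LR12 arrays at 2 h, from 11.66 to 12.07, lay above the vehicle values of 9.23, 9.20, 11.64 and 10.08. For SLC25A28 vehicle animal 3, at 13.16, lay inside the LR12 range of 12.74 to 13.68 and the other three below it.

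The carriers lower than vehicle at both 2 and 4 h were SLC25A4 (-1.48 ± 0.38 and -1.32 ± 0.38), SLC25A11 (-1.08 ± 0.26 and -0.85 ± 0.26), SLC25A26 (-1.15 ± 0.41 and -1.30 ± 0.41), SLC25A36 (-1.09 ± 0.38 and -1.37 ± 0.38) and SLC25A43 (-1.04 ± 0.35 and -1.02 ± 0.35). For SLC25A36 the sign turned at 4 h in the gene's second probe set, so that call belongs to the probe set used. SLC25A14 (-1.18 ± 0.23) and SLC25A46 (-0.93 ± 0.21) were lower at 2 h alone. SLC25A13 (-1.48 ± 0.50), SLC25A16 (-1.11 ± 0.37), SLC25A38 (-0.77 ± 0.24) and SLC25A5 (-0.43 ± 0.15) were lower at 4 h, and SLC25A38 again at 8 h (-0.86 ± 0.24). At 8 h the LR12 values of SLC25A38, 5.70 to 6.11, lay below the vehicle values of 6.87, 6.59, 6.63 and 6.77.

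Of these 22 calls against vehicle 6 were kept without each animal in turn, and SLC25A14, SLC25A28 and SLC25A33 at 2 h were kept under each alternative that gave a value for them, which leaves out the high-control arrays, where vehicle had 0 arrays at 2 h, and for SLC25A33 a second probe set. Without 1 animal at a time the 2 h count of 9 ran from 6 to 12, a range given without all-gene shares. Vehicle animals weighed heavily at 4 and 8 h. The 4 h count of 12 became 2 without vehicle animal 1, 4 without animal 2 and 1 without animal 4 (4.43%, 5.6% and 4.43% of all genes), and it became 6 and 7 without LR12 animals 2 and 4 (9.63% and 8.22%). The 8 h count of 1 became 16 without vehicle animal 3 (16.7% of all genes), 5 without LR12 animal 1 (6.74%) and 2 without peptide control animal 1 (3.46%), and it was 0 without vehicle animal 1, 2 or 4 and without each of LR12 animals 2 to 6. With the animal as a block it was 3, against 4.64% of all genes.

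Markers of blood cells differed in the same comparison. Of 8 T cell markers 2 were called lower at 2 h, 8 at 4 h and 1 at 8 h, and of 5 B cell markers 5, 1 and 1. Of 7 monocyte markers 3 were lower and 1 higher at 2 h, 1 lower and 1 higher at 4 h, and 0 were called at 8 h. Of 6 NK cell markers 1 was higher at 2 h, and 1 was higher and 1 lower at 4 h. Of 10 neutrophil markers 0, 1 and 2 were higher at the successive hours. Of 11 erythroid markers 3, 4 and 4 were lower, with a median difference of -0.93, -1.13 and -1.41 on the log2 scale, set beside the lower SLC25A38 at 4 and 8 h. That median was already -0.83 at 0 h, when 0 markers of these lists were called. The part of these differences in the carrier differences was not tested.

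**Figure D5:**
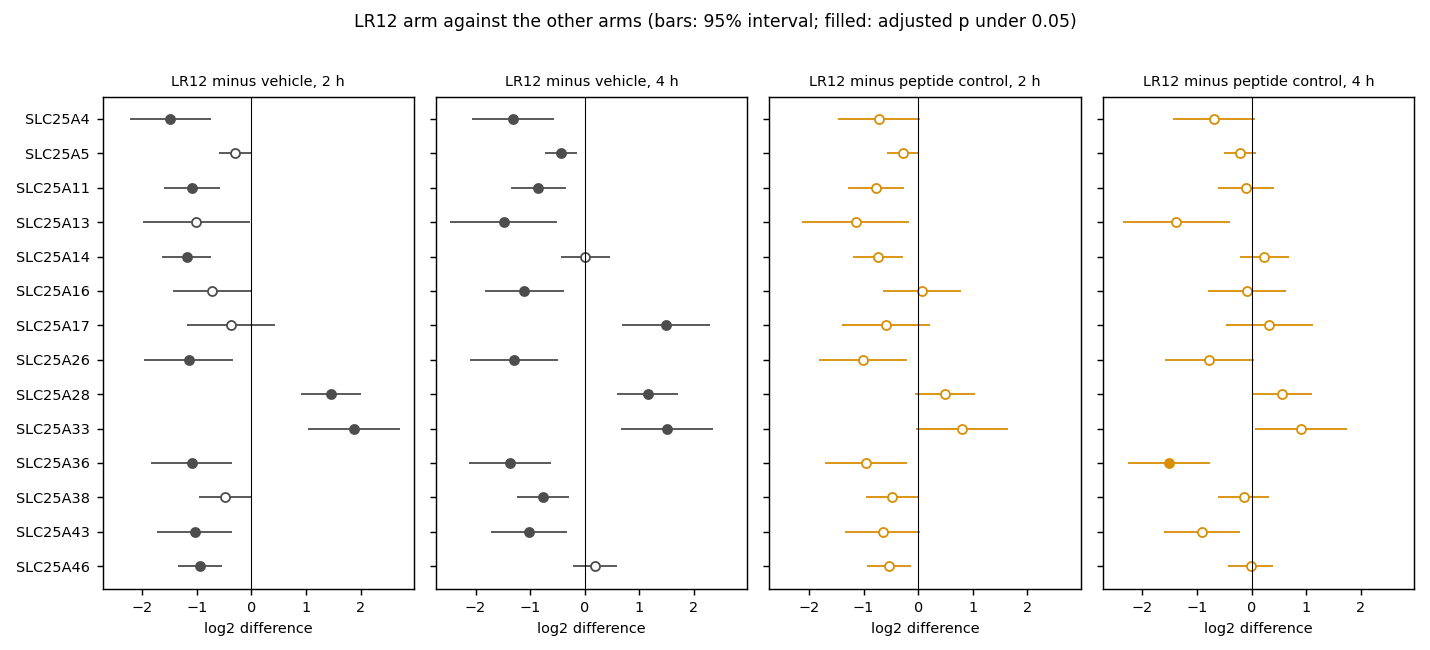
Log2 difference (horizontal) with its 95% interval between the LR12 arm and the vehicle arm (grey) or the peptide control arm (orange) at 2 and 4 h for the 14 carriers called in any of these 4 comparisons (rows), with filled points at an adjusted p under 0.05. Against vehicle 9 points are filled at 2 h and 12 at 4 h, and against the peptide control 1, SLC25A36 at 4 h with -1.52.

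Against the peptide control, the comparison that sets LR12 beside a scrambled peptide, 1 carrier was called. SLC25A36 was lower in the LR12 arm at 4 h, with LR12 values of 5.44 to 6.58 (median 5.89) and peptide control values of 7.58, 7.25, 7.60 and 7.49, which did not overlap. The difference was -1.52 ± 0.38 (adjusted p = 0.0316, limma), when 0.98% of all genes were lower and 0.375% higher (1.35% in either direction). The call was lost without each animal of the peptide control arm in turn (adjusted p from 0.0609 to 0.105) or without LR12 animal 4, 5 or 6 (0.0669 to 0.0829), after quantile normalization (0.0517), with the array set as a covariate (0.0757) and in the gene's second probe set (-0.28, adjusted p = 0.761). Without LR12 animal 3 the comparison held 2 called carriers (2.02% of all genes). Markers of blood cells differed between LR12 and the peptide control too. At 4 h, 2 of 8 T cell and 2 of 11 erythroid markers were called lower. At 2 h, 2 of 11 erythroid, 1 of 5 B cell and 1 of 7 monocyte markers were. Of the neutrophil, NK cell and platelet markers 0 were called at these hours. The part of these differences in the SLC25A36 difference was not tested.

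At 2 and 8 h limma called 0 carriers between LR12 and the peptide control, against 2.95% and 0.0187% of all genes (2.71% lower and 0.237% higher at 2 h), and 8 and 7 carriers (19.0% and 16.7%) had an unadjusted p under 0.05, against 17.9% and 10.4% of all genes. Without LR12 animal 1 the 2 h count was 4 (8.68% of all genes), and without vehicle animal 3 it was 1 (5.41%). The smallest adjusted p at 2 h was that of SLC25A14 (-0.74 ± 0.23, 0.0632). For SLC25A33 the difference was 0.80 with a 95% interval (normal, from the SE) of -0.04 to 1.64 at 2 h, and for SLC25A28 it was 0.48 with an interval of -0.07 to 1.03. For SLC25A40 at 4 h it was 0.64 with an interval of -0.34 to 1.62. These intervals leave room for a difference of more than 1 on the log2 scale in each of these carriers.

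Peptide control and vehicle did not differ by a call at 2, 4 or 8 h in limma, against 0.0%, 0.00624% and 0.0% of all genes, and 2, 5 and 1 carriers had an unadjusted p under 0.05, against 8.36%, 11.3% and 7.2% of all genes. Without vehicle animal 3 the counts at 2 and 4 h were 2 and 3 (3.98% and 6.42% of all genes), and without peptide control animal 1 the count at 2 h was 2 (2.39%).

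Differences between the arms' changes from 0 h were tested as interaction terms, and limma called 0 carriers in all 9. Between LR12 and vehicle it called 2.17%, 0.218% and 0.0% of all genes for the changes to 2, 4 and 8 h, between LR12 and peptide control 0.0% each time, and between peptide control and vehicle 0.0% each time. At an unadjusted p under 0.05 there were 9, 15 and 11 carriers (21.4%, 35.7% and 26.2%) for LR12 minus vehicle, against 18.9%, 16.9% and 13.6% of all genes. For LR12 minus peptide control there were 5, 4 and 4, against 11.9%, 7.13% and 5.52% of all genes, and for peptide control minus vehicle 1, 1 and 0, against 3.46%, 4.05% and 2.83%. The smallest adjusted p was 0.0517, for the change of SLC25A33 to 2 h, which was larger in the LR12 than in the vehicle arm by 2.09 (95% interval 0.90 to 3.28). SLC25A28 followed with 1.25 (0.47 to 2.03, adjusted p = 0.0698) and SLC25A14 with -0.97 (-1.61 to -0.33, 0.0852).

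With the animal as a block, 7 carriers were called for the change to 2 h and 4 for the change to 4 h between LR12 and vehicle, against 10.5% and 7.02% of all genes. Without vehicle animal 3 the counts for 2, 4 and 8 h were 3, 7 and 3 (6.52%, 6.5% and 1.89% of all genes), and without peptide control animal 1 the count for 2 h was 2 (3.95%). Without the block and with all animals, the changes of the carriers were therefore not shown to differ between arms.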

How the data were processed

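Blood RNA of 14 animals at 0, 2, 4 and 8 h was amplified with NuGEN's whole blood kit and hybridised to the human HG-U133 Plus 2 array, 56 arrays in all. The authors deposited intensities, and the submitters' processing notes name MAS5. Their trimmed mean is 150.03 to 150.04 on every array (2.0% trimmed at each end) and the array medians are 12.9 to 23.5. Arrays give no read depth, and the number of animals per arm limits the precision. 0 columns belonged to no sample, and 0 arrays held identical values.

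Log2 intensities were taken with no offset. Of 54675 probe sets, 41097 had exactly 1 gene symbol in the platform annotation, which can be old. A gene was tested through its probe set with the highest mean, if above the array median on 4 or more arrays, which left 16020 genes. limma 3.58.1 in R 4.3.3 (lmFit, eBayes with trend and robust moderation) fitted 12 means of arm and hour to all 56 arrays, without a block, and gave 32 two-sided comparisons, each adjusted by Benjamini-Hochberg and called at an adjusted p under 0.05. The fit was also run on simulated data with independent noise on each array, which does not bear on arrays that share an animal. The p-values rest on the spread between arrays within the 12 groups, with the arrays of an animal at different hours treated as independent.

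The labels name the animal of each array. Arrays of an animal deviated together (mean correlation of deviations 0.18, lowest animal 0.103, against -0.0294 between animals), and 45 of 56 arrays matched their own animal best, so the animal as a block (statmod 1.5.0, consensus correlation 0.221) was run as an alternative. The other alternatives were centring, quantile normalization, an offset of 16, no filter, a filter at 28 arrays, the second probe set, no trend or robust step, the array set as a covariate, the low-control or high-control arrays alone, fits on the arms compared alone, and each animal left out.

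One gene that fits the symbol rule for members is not reported here. The members, the roles, the lists and the markers were chosen with earlier results of these data known. Values in every arm were given for the 10 carriers with the largest called LR12 changes that went one way in every LR12 animal, and for up to 6 called in other comparisons. Of each list the 2 largest called changes were eligible. Other called carriers were named with their values known.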

Additional observations from a re-analysis of the deposited data

Results flagged for a closer look

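In 144 groups of 4 or 6 animals for 12 carriers, 11 had an animal whose value lay far outside the others (Dixon's test at the 95% level, which flags about 1 group in 20 by chance). Of these, 4 were values of vehicle animal 3. It had the highest vehicle intensity at 2 h for SLC25A28 (13.16 on the log2 scale, the others 11.12 to 11.41) and SLC25A40 (8.91, the others 7.64 to 7.76). It had the lowest for SLC25A4 at 2 h (7.58, the others 8.03 to 8.09) and for SLC25A5 at 8 h (11.63, the others 12.44 to 12.52).

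Peptide control animal 1 gave 3 such values at 8 h. They were 9.35 for SLC25A33 (the others 10.78 to 10.89), 7.2 for SLC25A40 (9.73 to 9.88) and 12.35 for SLC25A5 (11.80 to 11.82).

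LR12 animal 1 was the highest of its arm for SLC25A5 at 2 h (12.3, the others 11.84 to 12) and 4 h (11.98, the others 11.39 to 11.56). LR12 animal 6 was the highest for SLC25A33 at 0 h (9.93, the others 8.07 to 8.75). Vehicle animal 4 was the lowest for SLC25A10 at 0 h (3.51, the others 5.48 to 5.61).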

How the results depend on the processing

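The text names 106 changes of 30 carriers for which single values were followed, 100 of them called, so that a call could be gained by 6. Of their 2612 values under an alternative, 2268 kept their direction and their side of the threshold, 322 lost the call, 9 gained it, 6 moved and 7 turned sign. The turned signs were those of SLC25A23 in its second probe set (1.11, 1.23 and 0.51 at 2, 4 and 8 h of the LR12 arm), SLC25A36 in its second probe set (0.47 at 8 h, and 0.11 at 4 h against vehicle), SLC25A46 in its second probe set (-0.27 at 4 h) and SLC25A3 after centring (0.023 at 4 h). Of the 62 calls in the LR12 arm, 47 were kept without each animal in turn and 30 under each alternative that gave a value. The high-control arrays gave one for 0 of the 62 and the filter at 28 arrays for 60. For 23 calls there is no second probe set, so that alternative could not change them. It kept 18 of the other 39, and 13 of the 30 have one. The LR12 counts moved by over 1.5 times with the second probe set (8 falls at 2 h, 4 rises at 4 h) and with centring (8 falls at 8 h). The animal as a block paired the hours and raised the peptide control counts to 9 at 4 h and 5 at 8 h, the step from 4 to 8 h to 3, LR12 against vehicle at 8 h to 3, and the differences of change between LR12 and vehicle to 7 at 2 h and 4 at 4 h. It moved no other count by over 1.5 times. At 8 h the peptide control count of 1 became 2 after centring, after quantile normalization, with the filter at 28 arrays, in the second probe set and on high-control arrays, and 3 with the array set as a covariate, and the 4 h count became 0 on high-control arrays. Vehicle gave 1 at 2 h on low-control arrays. The LR12 step from 2 to 4 h gave 4 on low-control arrays. The step from 4 to 8 h gave 2 in the second probe set and with the compared arm alone, 3 with the covariate, and 0 on either array set. LR12 against peptide control at 2 h gave 1 with the filter at 28 arrays, on low-control arrays and with the compared arms alone, and 3 with the covariate, and at 4 h it gave 0 after quantile normalization, in the second probe set and on high-control arrays. LR12 against vehicle at 4 h gave 7 after quantile normalization, 6 in the second probe set and 0 on high-control arrays. At 8 h it gave 0 after centring, after quantile normalization, in the second probe set and on high-control arrays, 6 with the covariate and 10 on low-control arrays. The difference of change between LR12 and vehicle at 2 h gave 1 with the offset, the filter at 28 arrays or the compared arms alone, at 4 h 2 and at 8 h 1 on low-control arrays. The cause of these moves was not tested, and fits on 1 array set use fewer arrays. Most of these counts stand without the share of all genes called under the same setting. They therefore do not set the carriers apart from other genes. Without 1 animal at a time the counts ran from 2 to 8 for the LR12 step from 2 to 4 h, 0 to 4 and 0 to 2 for LR12 against peptide control at 2 and 4 h, 1 to 14 and 0 to 16 for LR12 against vehicle at 4 and 8 h, 0 to 3, 0 to 8 and 0 to 5 for the peptide control at 2, 4 and 8 h, 0 to 2 and 0 to 3 for peptide control against vehicle at 2 and 4 h, and 0 to 3, 0 to 7 and 0 to 3 for the difference of change between LR12 and vehicle. Dim probe sets such as SLC25A10, SLC25A18, SLC25A23, SLC25A25 and SLC25A35, and the human probes, limit what sizes can be read.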
